A study of Spodoptera exigua with 2 samples.

Results

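Peptidoglycan recognition proteins (PGRPs) bind the peptidoglycan of bacterial cell walls and stand at the head of the Toll and IMD immune pathways of insects. In Drosophila, large PGRPs include the receptors that switch on the IMD pathway, while PGRP-LB is an amidase that cuts peptidoglycan into pieces that no longer stimulate it, and its own gene is switched on by that pathway. Cecropins are small antimicrobial peptides made at the far end of the same pathway. These roles are background from Drosophila and were not measured here. The 3 loci described are those that the study of the beet armyworm Spodoptera exigua places among its large PGRPs, out of 13002 genes in the deposited tables. SPEXI_LOCUS6461 is named as PGRP-LB-like in the study's supplement and is called PGRP-LB below. SPEXI_LOCUS6462 and SPEXI_LOCUS12582 carry no individual name and are called by their locus numbers.

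The data were 2 single-cell RNA libraries of hemocytes, the blood cells of insects, from newly molted larvae of instar 5. The challenged larvae had each received 140000 heat-killed Escherichia coli TOP10 cells through a proleg, and the naive larvae PBS, 8 h before hemolymph was drawn from several larvae and its cells were partitioned into droplets, and the number of larvae behind each library is not given in the sources used here. Each captured mRNA was tagged with a unique molecular identifier (UMI) at its 3′ end, so that UMIs count molecules. There was 1 library per condition. The conditions could therefore not be tested against each other, no value has a replicate error, and every interval below is an exact 95% interval that covers counting error only.

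After removal of cells outside 200 to 6000 genes, 12524 challenged and 14840 naive cells remained, with medians of 5282 and 3347 UMIs per cell. Since the challenged cells were deeper, shares of cells with a UMI were compared after every cell had been thinned at random to 1000 UMIs, which left 11458 challenged and 12157 naive cells. The libraries shared 44 cell barcodes. The pooled cells formed 34 re-derived clusters. The PGRP and antimicrobial peptide genes, and 26 genes that differed broadly between the libraries, were not used to form them. Clusters are called by their leading marker genes, prophenoloxidase (PPO) genes, cathepsin genes, SPARC-group genes or hemicentin-like genes, and not by a hemocyte type. These hemocyte genes each peaked in clusters of their own, and muscle genes led cluster 33, with 13 challenged and 11 naive cells. Cluster 13 held 639 challenged and 0 naive cells and cluster 18 held 424 challenged and 6 naive cells. The library ratio of PGRP-LB, its share over all cells and its r with cecropin B over all cells are therefore also given without them. Its cathepsin-high level is also given without cluster 18. The shares by cecropin B content, the correlations over clusters and the search for the most similar genes were not repeated without these clusters.

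PGRP-LB stood far higher in challenged than in naive hemocytes, and the other large loci moved much less or were close to the limit of detection. PGRP-LB had 179695 UMIs in the challenged and 7958 UMIs in the naive library, or 1902 and 98.0 CPM (UMIs of the gene scaled to a library total of 1000000). The ratio of these levels was 19.4 (interval 19.0 to 19.9). Of the 10574 genes with at least 20 UMIs over both libraries, 9 had a ratio this high, PGRP-LB among them. SPEXI_LOCUS6462 had 122 challenged and 19 naive UMIs, or 1.29 and 0.234 CPM, a ratio of 5.52 with a wide interval of 3.39 to 9.48, and of 2.35 when every cell was given the same weight. SPEXI_LOCUS12582 had 6132 challenged and 4022 naive UMIs, or 64.9 and 49.5 CPM, a ratio of 1.31 (interval 1.26 to 1.36). Thus 2 of the 3 loci were above 2-fold, where 2.53% of all genes were.

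The PGRP-LB UMIs lay in more cells and in larger numbers per cell. At equal depth 32.4% of challenged cells (interval 31.5 to 33.2) and 5.49% of naive cells (interval 5.10 to 5.91) held a PGRP-LB UMI, against 45.9% and 9.91% without thinning. Without clusters 13 and 18 the shares at equal depth were 26.2% of challenged and 5.50% of naive cells. In cluster 12 (hemicentin 1-like-high) the shares were 2.63% of challenged and 0.592% of naive cells, with median depths of 8602 and 6674 UMIs. This cluster had the lowest PGRP-LB level of each library among clusters with at least 50 cells. Among the cells with at least 1 UMI, the mean was 7.31 of 1000 UMIs in challenged cells and 2.42 in naive cells, with medians of 4 and 1. The challenged library had 865 cells with 10 to 29 of 1000 UMIs for PGRP-LB and 96 with at least 30, while the naive library had 19 and 0. The single highest cell held 552 PGRP-LB UMIs in the challenged library and 87 in the naive library before thinning. The variance over the mean of the thinned counts was 15.4 in challenged and 4.85 in naive cells, against 1.10 and 1.11 for SPEXI_LOCUS12582, where 1 is the value of random sampling from a uniform level. PGRP-LB was therefore very uneven between cells in both conditions. At the low counts of SPEXI_LOCUS12582 this ratio stays near 1 at any spread and says nothing of its evenness. The top 10% of challenged cells by PGRP-LB held 72.4% of its UMIs.

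Challenged cells with at least 1 PGRP-LB UMI had a median depth of 7457 UMIs and those without it a median of 2816, and called doublets made up 2.31% of cells with and 0.900% of cells without it. In naive cells these medians were 5927 and 2954 UMIs, and these shares of doublets 5.78% and 2.60%. The part of depth and doublets in the unthinned shares was not tested. Without called doublets the ratio of library levels was 19.4 and the ratio of thinned shares 5.88. With detection set at 2 UMIs the ratio of thinned shares was 9.35, against 5.89 at 1 UMI.

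A few clusters held most of the challenged PGRP-LB. Cluster 6 (SPARC-high) contributed 41.9% of the challenged UMIs of the gene, cluster 13 contributed 29.9% and cluster 18 (cathepsin-high) 8.03%, together 79.8% of the UMIs in 18.3% of the cells. By marker group, PGRP-LB was 3841 CPM in challenged and 243 CPM in naive cells of the SPARC-high clusters, 2633 and 223 CPM in the cathepsin-high, 878 and 10.99 CPM in the PPO-high and 326 and 16.5 CPM in the hemicentin 1-like-high clusters. The SPARC-high and cathepsin-high values rested on single clusters. Cluster 6 held 75246 of the 83890 challenged UMIs of the SPARC-high group and cluster 18 held 14431 of the 18439 of the cathepsin-high group. Without cluster 6 the SPARC-high levels were 820.3 CPM in challenged and 224 CPM in naive cells, and the ratio was 3.66 rather than 15.8. Without cluster 18 the cathepsin-high levels were 650.2 CPM in challenged and 223 CPM in naive cells, and the ratio was 2.91 rather than 11.8. On the naive side cluster 4 held 1118 of the 1159 UMIs of this group. The 2.91 therefore mixes clusters with unlike ratios, which are given below. The levels of clusters 6, 13 and 18 were 6658 CPM (interval 6611 to 6706), 10955 CPM (interval 10862.5 to 11047.9) and 17219 CPM (interval 16939.5 to 17502.5). In cluster 13 nearly every cell carried the transcript, with 99.4% of cells positive at equal depth, a median of 10 of 1000 UMIs and quartiles of 6 and 15. Cluster 6 was close to this, with 90.8% positive, a median of 5 and quartiles of 2 and 9. Cluster 18 reached the highest level with the widest spread, 86.0% positive, a median of 13, quartiles of 3 and 26 and a maximum of 90. The naive UMIs of PGRP-LB were divided otherwise, with 40.9% in cluster 3 (SPARC-high), 14.0% in cluster 4 (cathepsin-high) and 8.65% in cluster 6. Such shares also depend on the number of cells. Cluster 6 held 1226 challenged and 165 naive cells, and cluster 3 held 461 challenged and 1529 naive cells.

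**Figure D1:**
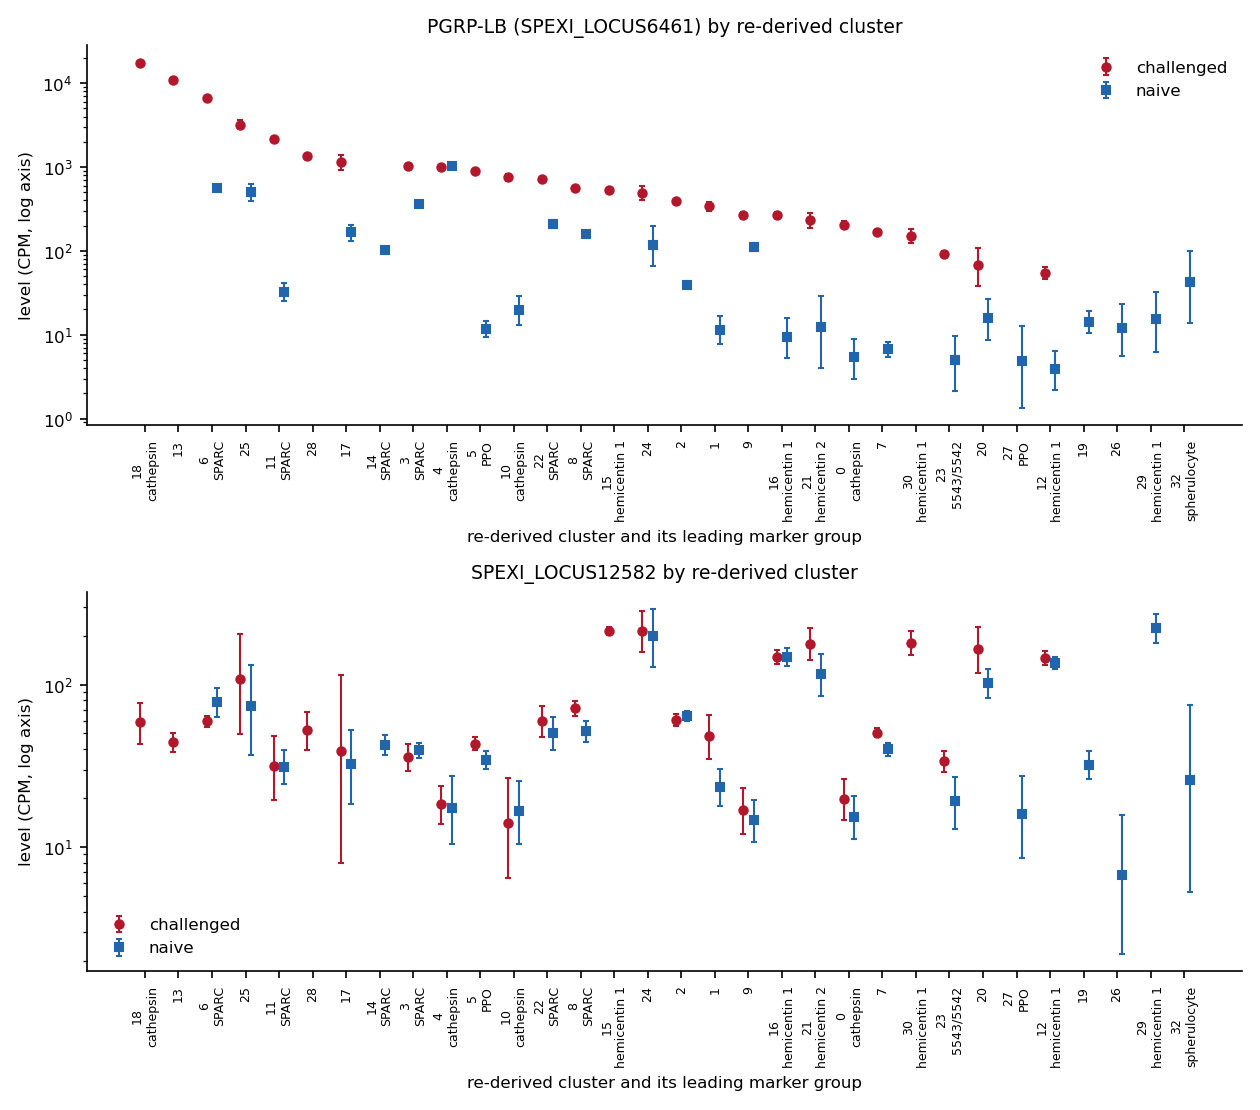
Level of PGRP-LB (top) and SPEXI_LOCUS12582 (bottom) in CPM on log axes in each re-derived cluster that has 50 or more cells of the library, challenged as circles and naive as squares, with exact 95% Poisson intervals and clusters ordered by the challenged PGRP-LB level. PGRP-LB is at 17219 CPM in challenged cells of cluster 18 and near 1000 CPM in both libraries only in cluster 4, while the 2 libraries lie close together for SPEXI_LOCUS12582.

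In naive hemocytes the highest PGRP-LB level was that of cluster 4, at 1026 CPM (interval 966 to 1088), followed by cluster 6 at 559 CPM (interval 518 to 603), cluster 25 at 501 CPM (interval 394 to 628) and cluster 3 at 365 CPM (interval 353 to 378). The counting intervals of clusters 6 and 25 overlapped, and that of cluster 4 lay apart from all others. The lowest level of both libraries was that of cluster 12 (hemicentin 1-like-high), at 55.0 CPM in challenged and 3.93 CPM in naive cells. Levels above 2 times the library level were found in 3 of 26 challenged and 5 of 27 naive clusters with at least 50 cells. Across the 21 clusters that have 50 or more cells in both libraries, the challenged and naive log2 levels of PGRP-LB had a Pearson r of 0.72, a description over clusters that share their library and their depth.

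PGRP-LB was higher in challenged than in naive cells in 20 of these 21 clusters, and by more than 2-fold in all 20. In 11 of the 20 the challenged level also exceeded the genes used below to gauge free RNA. The ratios of the other 9 are not read as a difference in the cells. Only 4 genes (0.0378%) passed 2-fold in at least 20 of the 21 clusters. The median ratio was 11.9, and the extremes were clusters of named marker groups. In cluster 5 (PPO-high) PGRP-LB was 899 CPM in challenged and 11.7 CPM in naive cells, a ratio of 76.95 (interval 62.01 to 96.7). PPO genes encode the zymogens of the melanization enzyme phenoloxidase. In cluster 11 (SPARC-high) the levels were 2131 and 32.5 CPM, a ratio of 65.6 (interval 51.8 to 84.2). The other SPARC-high clusters spread widely, with ratios of 11.9 in cluster 6, 3.53 in cluster 8, 3.45 in cluster 22 and 2.80 in cluster 3, the last 3 having naive levels of 157, 209 and 365 CPM.

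The cathepsin-high clusters were split. Cluster 4 was the single cluster without a difference beyond counting error, at 1002 CPM (interval 966 to 1038) in challenged and 1026 CPM in naive cells, a ratio of 0.977 (interval 0.912 to 1.05), and 18.9% of challenged and 23.2% of naive cells were positive at equal depth. Clusters 0 and 10, of the same marker group, had ratios of 38.4 (interval 23.1 to 69.1) and 37.9 (interval 25.5 to 58.6), from naive levels of 5.37 and 19.8 CPM. The ratio of cluster 0 is not read as a difference in the cells, given the comparison with free RNA below. Cluster 18 had no naive counterpart to compare, with 0 PGRP-LB UMIs in its 6 naive cells. Whether the cells of cluster 18 correspond to naive cells of clusters 0, 4 or 10 was not tested.

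**Figure D2:**
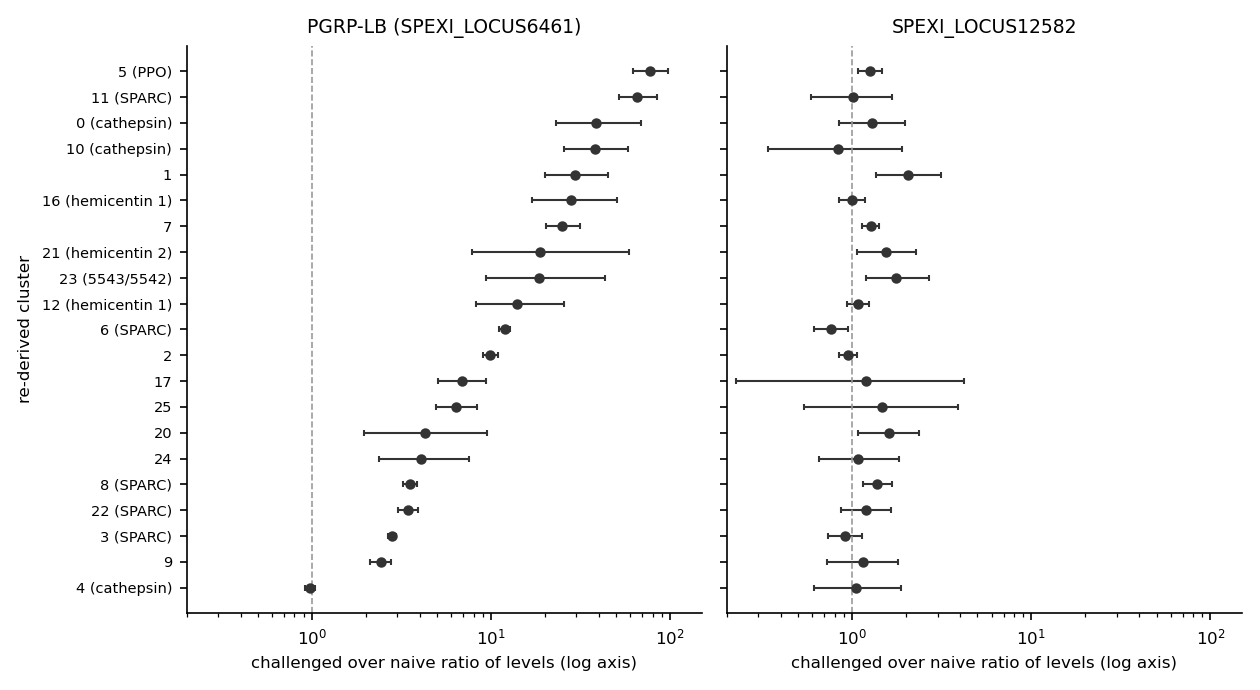
Challenged over naive ratio of the level of PGRP-LB (left) and SPEXI_LOCUS12582 (right) in the 21 re-derived clusters that have 50 or more cells in both libraries, on log axes with exact conditional 95% intervals and a dashed line at 1. For PGRP-LB the points run between 0.977 in cluster 4 and 76.95 in cluster 5, and for SPEXI_LOCUS12582 between 0.761 and 2.06.

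Low levels in a cluster can come from free RNA that enters every droplet. PPO2 and hemicentin 2-like, which peak in clusters of their own, were found in the other challenged clusters at medians of 11.03% and 9.04% of their library level, and PPO1 at 15.2%. The naive medians were 9.41%, 4.96% and 12.8%. PGRP-LB exceeded all of these genes, relative to its own library level, in 12 of the 21 clusters on the challenged side, of which 11 had a ratio above 2. Over these 12 clusters the ratio had a median of 9.39 and spanned 0.977 to 76.95. In the other 9 clusters (0, 1, 2, 9, 12, 20, 21, 23 and 24) at least 1 of these genes stood higher on this scale. Their PGRP-LB ratios are therefore not read as a difference in the cells. In cluster 2 only hemicentin 2-like stood higher, at 58.7% against 20.6% for PGRP-LB. Hemicentin 2-like was an uneven gauge, since it reached 222% of its library level in challenged cluster 24. How much of the PGRP-LB in these clusters was free RNA was not tested.

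Part of the library ratio went with which cells were present. Over the 21 shared clusters the ratio was 12.8, at 1331 CPM in challenged and 104 CPM in naive cells. With the challenged levels weighted by the UMI shares that the clusters had in the naive library it was 6.17, and with the naive levels weighted by the challenged shares it was 8.43. Without clusters 13 and 18, an alternative added after the data had been seen, the library ratio was 12.8. The shared clusters held 59.5% of the challenged and 92.0% of the naive PGRP-LB UMIs.

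PGRP-LB and cecropin B (SPEXI_LOCUS6878) were compared within cells. Cecropin B itself was 19530.2 CPM in challenged and 2745 CPM in naive cells, a ratio of 7.12. Over the 11458 challenged cells, thinned to the same depth, PGRP-LB and cecropin B had a Pearson r of 0.46 on the log2(UMIs + 1) scale, and over the 12157 naive cells an r of 0.16. Without clusters 13 and 18 these were 0.45 and 0.16. These are descriptions over cells of 1 library, which also share their free RNA. By r with PGRP-LB over cells, cecropin B held rank 7 of the 6099 genes compared in challenged cells and rank 10 in naive cells. Over clusters its rank was only 1014 in the challenged and 2461 in the naive library. Cecropin A1 (SPEXI_LOCUS6881) had an r of 0.46 with PGRP-LB in challenged cells, and spodoptericin (SPEXI_LOCUS9978), an antimicrobial peptide gene at 1119 challenged and 1421 naive CPM, an r of -0.15.

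The share of cells with a PGRP-LB UMI climbed with the cecropin B content of the cell. In challenged cells it was 12.0% with 0 cecropin B UMIs of 1000, 14.6% with 1 to 2, 24.8% with 3 to 9, 43.4% with 10 to 29, 70.1% with 30 to 99 and 65.1% (interval 55.4 to 74.0, 109 cells) with 100 or more. The last 2 intervals overlapped, so no further increase was detectable above 30 UMIs. In naive cells the shares were 2.73%, 5.65%, 14.4%, 15.6% and 11.8% over the first 5 classes, with overlapping intervals over the last 3, and no naive cell reached 100. Free RNA evenly spread at the median levels of PPO2, PPO1 and hemicentin 2-like outside their own clusters would by itself make 15.8% to 25.04% of challenged and 0.485% to 1.25% of naive cells positive. The challenged shares up to 9 cecropin B UMIs are no higher than this range. Some whole clusters lay below it, with 2.63% of challenged cells positive in cluster 12 and 5.55% in cluster 0. Free RNA was therefore not evenly spread at these levels, and the range does not give its share in the classes. That share was not tested, and no difference between the libraries is read up to 9 cecropin B UMIs. With 10 to 29 and with 30 to 99 cecropin B UMIs, PGRP-LB was present in a larger share of challenged than of naive cells. The cells with 10 or more cecropin B UMIs came from unlike clusters. Of those with under 3 PGRP-LB UMIs, cluster 2 held 363 of 674 naive and 558 of 2554 challenged cells. Of the 1805 challenged cells with 3 or more, 872 were in cluster 6 and 593 in cluster 13, which had 0 naive cells. The part of cluster composition in this difference was not tested.

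**Figure D3:**
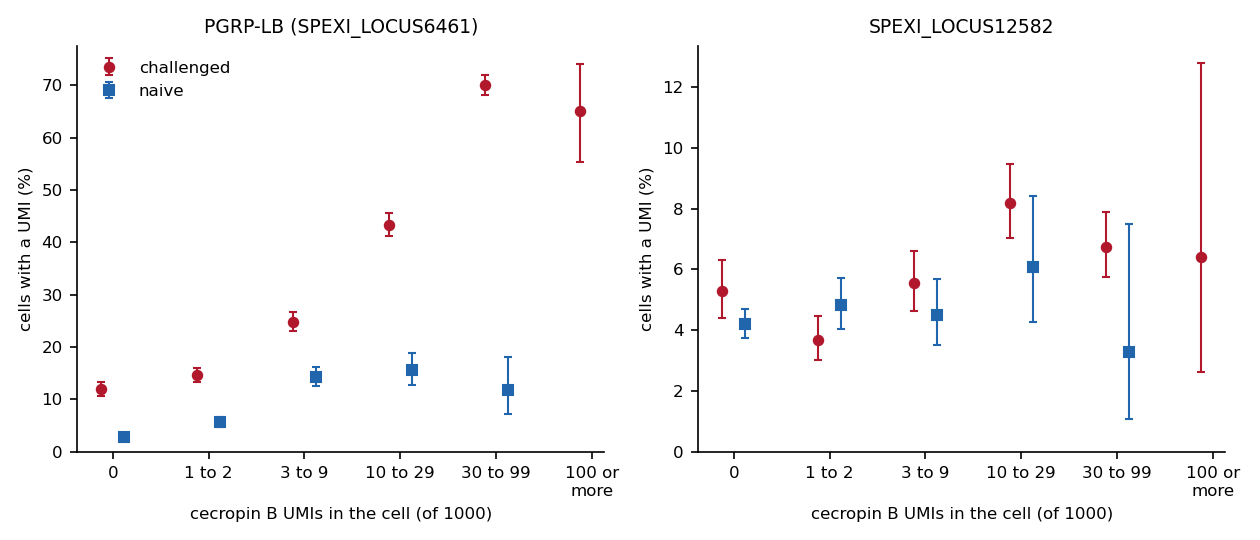
Share of cells with a UMI of PGRP-LB (left) and of SPEXI_LOCUS12582 (right) by the number of cecropin B UMIs among 1000 UMIs of the cell, challenged as circles and naive as squares, with exact 95% Clopper-Pearson intervals. The PGRP-LB share of challenged cells reaches 70.1% at 30 to 99 cecropin B UMIs, against 11.8% in naive cells, while the highest SPEXI_LOCUS12582 share is 8.19%.

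Within clusters the relation varied, and it was weaker than over all cells in the challenged library only. For deviations from the cluster means r was 0.28 in challenged cells, against 0.46 over all of them. In naive cells it was 0.20, against 0.16 over all of them. In challenged cells r was above 0 in 24 of the 24 clusters that could be computed, with a median of 0.22, and in naive cells in 20 of 24, with a median of 0.16. Without called doublets, an alternative added after the data had been seen, r was above 0 in 23 of 24 challenged and 19 of 24 naive clusters, with medians of 0.22 and 0.16. The share of called doublets was higher in challenged cells with PGRP-LB than in those without it in 17 of these 24 clusters, and reached 31.3% of 16 cells in cluster 16, 29.1% in cluster 15 and 25.4% in cluster 7, against 0%, 3.91% and 3.40% of the cells without PGRP-LB. The largest challenged values were 0.57 in clusters 5, 6 and 22 and 0.54 in cluster 8, and the largest naive values 0.56 in cluster 25, over 67 cells, and 0.47 in cluster 17. In the PPO-high cluster 5, the 201 challenged cells with PGRP-LB had a mean of 18.4 of 1000 UMIs for cecropin B and the 654 cells without it a mean of 3.57. In the SPARC-high cluster 6 these means were 42.5 in 1113 cells with PGRP-LB and 16.9 in 113 cells without it, and in cluster 8 they were 10.2 and 2.46. Median depths before thinning differed little within clusters 5, 6 and 8, with 13047 and 12307 UMIs in cluster 5, 8648 and 7988 in cluster 6, and 7199 and 7131 in cluster 8, but in cluster 2 they were 6910.0 UMIs with PGRP-LB and 11149.5 without it.

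In cluster 4, where PGRP-LB was high in both libraries, r was 0.01 in challenged and -0.05 in naive cells, values near those of clusters 0 and 21 in challenged cells (0.07 and 0.04) and of clusters 27 and 20 in naive cells (-0.04 and -0.03). There challenged cells with PGRP-LB had a mean of 1.46 of 1000 UMIs for cecropin B, against 0.985 in those without. In naive cells of cluster 4 these means were 0.0787 and 0.133, although the cells with PGRP-LB had a mean of 4.25 UMIs for that gene. Called doublets made up 2.36% of the naive cells with and 3.095% of those without it.

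Across whole clusters the 2 genes ran apart. The Pearson r of their log2 levels was 0.20 over 26 challenged and 0.14 over 27 naive clusters. Cluster 21 (hemicentin 2-like-high) had the highest challenged cecropin B level, 66627 CPM, with 232 CPM of PGRP-LB, and cluster 2 had 34260.3 CPM of cecropin B with 393 CPM of PGRP-LB. Relative to library levels, PGRP-LB in cluster 21 (12.2%) was below PPO2 (22.2%) and PPO1 (37.8%). In cluster 2 (20.6%) it was above PPO2 (6.49%) and PPO1 (10.8%) and below only hemicentin 2-like (58.7%). The part of free RNA in these 2 levels was not tested. Cluster 18 had 7169 CPM of cecropin B and the highest PGRP-LB level. Challenged cells with at least 3 of 1000 UMIs for PGRP-LB and at least 10 for cecropin B numbered 1805, of which 872 were in cluster 6 and 593 in cluster 13. A further 535 cells had as much PGRP-LB with less cecropin B, and 77.4% of them were cathepsin-high, with 240 in cluster 18 and 144 in cluster 4. In the naive library 36 cells were high in both genes and 150 in PGRP-LB alone, and 73 of the 150 were in cluster 4. Cells rich in cecropin B but poor in PGRP-LB numbered 2554 in the challenged and 674 in the naive library, with cluster 2 as their largest source in both (558 and 363 cells).

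**Figure D4:**
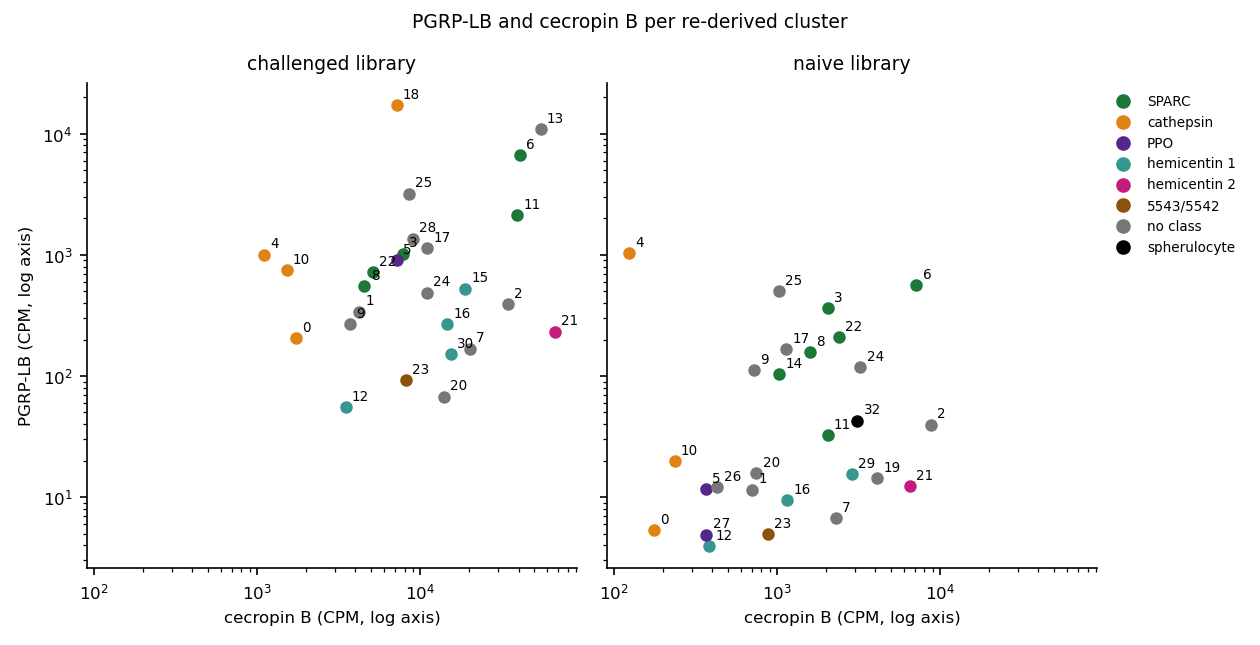
PGRP-LB against cecropin B, both in CPM on log axes, with 1 point per re-derived cluster that has 50 or more cells of the library, challenged on the left and naive on the right, numbered and coloured by leading marker group. Clusters 18 and 4 lie high in PGRP-LB at low or middle cecropin B, cluster 21 has the highest challenged cecropin B at 232 CPM of PGRP-LB, and clusters 13 and 6 are high in both.

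SPEXI_LOCUS12582 followed another pattern. By marker group it was highest in the hemicentin 1-like-high clusters and in cluster 21 (hemicentin 2-like-high). The hemicentin 1-like-high clusters had 181 CPM in their 1121 challenged cells and 139.5 CPM in their 881 naive cells, where 15.3% and 15.0% of cells were positive at equal depth, and cluster 21 had 179 CPM in challenged and 116 CPM in naive cells. Among single clusters with at least 50 cells the challenged levels were led by cluster 24 at 215 CPM and cluster 15 at 214 CPM, and the naive levels by cluster 29 at 222 CPM and cluster 24 at 198 CPM. The cathepsin-high cells had 23.3 CPM of SPEXI_LOCUS12582 in the challenged and 16.1 CPM in the naive library. In the SPARC-high cells the levels were 58.3 and 44.0 CPM, and in the PPO-high cells 42.8 and 32.6 CPM. Relative to its library level, SPEXI_LOCUS12582 exceeded the free RNA genes in 25 of 26 challenged and 23 of 27 naive clusters.

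Its cluster pattern hardly differed between the libraries, with a Pearson r of 0.96 between challenged and naive log2 levels over 21 clusters. The ratio had a median of 1.195 over the 21 clusters and was above 2 only in cluster 1, at 48.4 CPM in challenged and 23.5 CPM in naive cells from 43 and 57 UMIs. The interval lay above 1 in 7 clusters, below 1 in cluster 6 and included 1 in 13. At equal depth, 5.76% of challenged cells (interval 5.34 to 6.20) and 4.45% of naive cells (interval 4.09 to 4.83) held a UMI. Weighted by the naive cluster shares the ratio of levels was 1.12. Over the classes of cecropin B content the share of challenged cells with a SPEXI_LOCUS12582 UMI showed no steady climb, being 5.28% with 0 cecropin B UMIs, 3.69% with 1 to 2, 8.19% with 10 to 29 and 6.75% with 30 to 99. Its r with cecropin B over cells was 0.05 in challenged and 0.01 in naive cells, low values in sparse counts. Across clusters the r of their log2 levels was 0.46 over 26 challenged and 0.50 over 27 naive clusters. The values of PGRP-LB with cecropin B across the same clusters were lower, at 0.20 and 0.14. With PGRP-LB, r over cells was 0.01 and -0.01.

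SPEXI_LOCUS6462 was rare in both libraries. It was found in 95 challenged cells (0.759%) and 16 naive cells (0.108%), with at most 4 and 3 UMIs in a cell. At equal depth 17 challenged and 7 naive cells kept a UMI, a ratio of shares of 2.58 with an interval of 1.02 to 7.35. The interval included 1 after thinning to 500 UMIs (from 0.966), at a limit of 2 UMIs (from 0.110) and without called doublets (from 0.998), so a difference at equal depth was not established for this locus. The challenged UMIs were concentrated where PGRP-LB was, with 40 of 122 in cluster 6 and 35 in cluster 13. A further 23 were in the deep cells of cluster 7, where PGRP-LB was 168 CPM. The SPEXI_LOCUS6462 level of cluster 7 was 1.25 CPM, close to the 1.29 CPM of the challenged library. PGRP-LB was also present in 87 of the 95 challenged cells, or 91.6%, against 45.9% of all challenged cells, while the 95 cells were deeper, with a median of 11203 UMIs. For every 1000 PGRP-LB UMIs there were 0.679 SPEXI_LOCUS6462 UMIs in the challenged library (interval 0.564 to 0.811) and 2.39 in the naive library (interval 1.44 to 3.73). This figure was 0.532 in cluster 6, 0.651 in cluster 13 and 7.46 (interval 4.73 to 11.2) in cluster 7 of the challenged library, so the counts of the loci did not keep 1 ratio. How alike the transcripts of the loci are, and whether reads could be shared between them, was not examined here.

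The other PGRPs, the 4 loci that the study lists as small PGRPs, had a median ratio of 4.04, against 0.948 over all genes. Of the 4, 3 were above 2-fold, where 2.53% of all genes were. SPEXI_LOCUS6460, numbered next to PGRP-LB, had 65.7 CPM in challenged and 6.55 CPM in naive cells. Its highest challenged level was 341 CPM in cluster 15 (hemicentin 1-like-high), where PGRP-LB was 527 CPM, and over challenged cells its r with PGRP-LB was 0.20. Of the antimicrobial peptide genes, cecropin B and cecropin A1 were above 2-fold and spodoptericin was not. Of 8 genes of the Toll pathway, which include the adaptor MyD88 and the kinase Pelle, 0 were above 2-fold and 0 below 0.5-fold, where 12.4% of all genes were below it, with a median ratio of 1.11. Within this list Pelle (SPEXI_LOCUS6804) was 26.3 CPM in challenged and 22.0 CPM in naive cells, and MyD88 (SPEXI_LOCUS11397) 27.4 and 28.0 CPM. The intracellular genes of the IMD pathway were not analysed here.

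The genes whose pattern was most like that of PGRP-LB have no name in the files. Over 26 challenged clusters the closest was SPEXI_LOCUS2107, with a Pearson r of 0.87 on the log2(CPM + 10) scale and levels of 103 CPM in challenged and 50.5 CPM in naive cells. Over challenged cells it was SPEXI_LOCUS10397, with an r of 0.57 and levels of 718 and 96.0 CPM, a ratio of 7.48. For SPEXI_LOCUS12582 the closest gene over challenged cells was hemicentin 1-like (SPEXI_LOCUS174), which also marks the clusters where the locus was highest, at an r of 0.15, a low value in sparse counts.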

How the data were processed

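Hemocytes of challenged and naive larvae were measured in 1 single-cell RNA library each. The authors prepared 10x Chromium 3′ libraries, counted UMIs with Cell Ranger (7.2.0 in the file header) and deposited these UMI counts unnormalized, by gene and called cell. The genome build is not given in the sources used here. The submitters' processing notes also name STAR 2.7.10a, Bowtie2 2.4.5 and Seurat 4.0.

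Cells with 200 to 6000 genes were kept, 12524 challenged and 14840 naive. The challenged library held 94500088 UMIs and the naive library 81253288. The paper's mitochondrial filter was not applied. Scrublet (scanpy 1.11.5) called 194 challenged (1.55%) and 432 naive cells (2.91%) as doublets, which were kept except in an alternative.

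Pooled cells were clustered with Seurat 5.3.0 in R 4.3.3 (counts scaled to 10000, 5000 variable genes, 30 components, 20 neighbours, Louvain resolution 0.8). Clustering was then repeated on 4969 variable genes, without 26 genes whose median log2 ratio between libraries was above 1 or below -1 and without the listed PGRP and antimicrobial peptide genes. A cluster was called by the marker group with the highest median log2 level over the library, if at least 1. It was left unnamed where its 10 leading genes by fold held more markers of another group, or held 0 of that group's markers while its median depth was below that of its library divided by 3. This scoring was chosen with the marker values in view.

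Levels are CPM of summed UMIs with exact Poisson intervals, ratios have exact conditional intervals, and shares have exact Clopper-Pearson intervals, all at 95%. PCR duplicates are removed by UMIs, and the intervals cover counting error only. No p-value was computed, since cells of 1 library are not replicates. Cells were thinned to 1000 UMIs without replacement for shares and correlations. Levels per cluster were compared for clusters of 50 or more cells in the library. The computations were tested on simulated data.

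The named genes were the 3 large PGRP loci, the 4 small PGRP loci, 3 antimicrobial peptide genes and 8 Toll pathway genes, and the genes most like the members by Pearson r among those with at least 500 UMIs, of which at most 2 unnamed loci are printed. The members and lists were chosen with earlier results of these data known. Alternatives covered scaling (equal weight per cell, totals without the 50 most abundant genes, the TMM factor of edgeR 4.0.16), cell filters, doublets, depth, detection limit, resolution, variable genes, RPCA integration, ranks and deviations from cluster means. The alternatives without clusters 13 and 18, without clusters 6 or 18 in a marker group and without doublets within clusters were added after seeing the data. Figures were drawn with matplotlib 3.10.9, and sums and intervals were computed in Python 3.11.15 with pandas 2.3.3, scipy 1.17.1 and numpy 2.4.6.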

Additional observations from a re-analysis of the deposited data

Results flagged for a closer look

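The levels of SPEXI_LOCUS12582 differed between the libraries in opposite directions in 2 clusters. The challenged over naive ratio was 2.06 (interval 1.36 to 3.12) in cluster 1 and 0.761 (interval 0.614 to 0.952) in the SPARC-high cluster 6. The values in cluster 6 were 59.4 CPM from 671 UMIs in challenged cells and 78.04 CPM from 96 UMIs in naive cells. At equal depth the shares in cluster 6 ran the other way, with 6.77% of challenged cells (interval 5.43 to 8.32) and 5.45% of naive cells (interval 2.52 to 10.1) positive. Median depths in cluster 1 were 1037 UMIs in challenged and 847 UMIs in naive cells. PPO1 there was at 70.3% of its library level in challenged and 79.3% in naive cells, and SPEXI_LOCUS12582 at 74.7% and 47.4%. On the naive side the locus thus stood below a gene used to gauge free RNA. The part of free RNA in the ratio of cluster 1 was not tested. The difference between the clusters was not tested, since each condition is 1 library.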

How the results depend on the processing

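No paired analysis was possible because each condition has 1 library. There were 56 alternative values, of which 37 stayed within counting error or the stated tolerance and 19 moved, and 0 changed direction. With equal weight per cell the library ratio was 18.5 for PGRP-LB, 2.35 for SPEXI_LOCUS6462 and 1.40 for SPEXI_LOCUS12582. With the TMM factor it was 20.8 for PGRP-LB and 1.40 for SPEXI_LOCUS12582, and with at least 500 genes per cell 20.1 for PGRP-LB. Without clusters 13 and 18 it was 12.8, 3.95 and 1.33, and the PGRP-LB ratio was 2.91 in the cathepsin-high group without cluster 18 and 3.66 in the SPARC-high group without cluster 6. The ratio of shares of cells with a PGRP-LB UMI was 8.16 after thinning to 500 UMIs, 4.48 after thinning to 2000, 4.63 without thinning and 9.35 at a limit of 2 UMIs, and for SPEXI_LOCUS12582 it was 1.46 at 500 UMIs, 1.54 without thinning and 2.16 at a limit of 2 UMIs. The r of PGRP-LB with cecropin B was 0.52 in challenged and 0.25 in naive cells after thinning to 2000 UMIs, and 0.28 in challenged cells for deviations from cluster means. The number of clusters with PGRP-LB above 2-fold was 17 of 18 at a resolution of 0.4, 23 of 26 at 1.2, 22 of 24 with all variable genes, 25 of 26 after RPCA integration and 20 of 21 without called doublets. Causes of these shifts were not tested, apart from depth, which the thinning changes by construction. Depth limits SPEXI_LOCUS6462, for which the interval of the thinned share ratio ran from 1.02 to 7.35 and included 1 at 500 UMIs, at a limit of 2 UMIs and without called doublets. With 1 library per condition, the challenge cannot be told apart from other differences between the libraries.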
